A study of Mus musculus with 6 samples.

Results

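The genes described here encode the receptors by which mesenchymal cells hold native collagen: the integrin alpha chains Itga1, Itga2, Itga10 and Itga11, the beta chain Itgb1, and the discoidin domain receptors Ddr1 and Ddr2. They were chosen by name, as 7 genes set among 12472 genes tested, and read through the array probes whose RefSeq accession belongs to them. Of the 7, 6 had at least 1 matched probe (9 probes in all), and 5 were bright enough to test. Expression was measured in lung fibroblasts of Mmp19 knockout mice and of wild-type mice, with 3 cultures a group and 1 one-colour Agilent array for each culture. The mice of both groups were labelled female and 11 weeks old, and all had received 0.08 units of bleomycin, which injures the lung and leads to fibrosis, by the intratracheal route. The lungs were taken on day 21, and the fibroblasts were cultured and incubated for 72 hours before total RNA was extracted. Mmp19 is a secreted matrix metalloproteinase, and the comparison is of its knockout with wild type after the same injury. No uninjured group was analysed here. The series describes independent experiments, but nothing links an array to a single animal, so p-values measure the spread between these cultures.

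A collagen-binding integrin is a pair of an alpha and a beta chain. The alpha chains of this group each carry an inserted domain that grips the collagen triple helix, and all of them pair only with the chain encoded by Itgb1, which also serves many integrins that bind fibronectin or laminin. The discoidin domain receptors are receptor tyrosine kinases that collagen itself activates, slowly and for long periods. In connective tissue the Itga11 integrin and Ddr2 are known as receptors of fibroblasts for fibrillar collagen, the Itga1 integrin binds type IV collagen well, the Itga2 integrin is best known on platelets and epithelium, the Itga10 integrin on cartilage cells, and Ddr1 is typical of epithelium.

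The promoters of 3 genes are shown because the alpha chain Itga11 was the member that changed, Itga1 is the other alpha chain that was measured, and Itgb1 is the partner that both need. Each line gives the 250 bases before the RefSeq transcription start in the mouse build GRCm38.p6, 5′ to 3′ on the strand of the gene. They lie at chr9:62677605-62677854 on the plus strand for Itga11, chr13:115101965-115102214 on the minus strand for Itga1 and chr8:128685404-128685653 on the plus strand for Itgb1. Capitals mark matches on either strand to 3 of the motifs searched, the Ets-type AGGAAGT, the GC box GGGCGG and the TEAD-type GGAATG.
Itga11: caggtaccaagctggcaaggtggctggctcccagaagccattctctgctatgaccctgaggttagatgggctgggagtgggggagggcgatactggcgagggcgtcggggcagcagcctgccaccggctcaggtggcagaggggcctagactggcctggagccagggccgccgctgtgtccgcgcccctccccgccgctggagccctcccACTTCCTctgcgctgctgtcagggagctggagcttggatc
Itga1: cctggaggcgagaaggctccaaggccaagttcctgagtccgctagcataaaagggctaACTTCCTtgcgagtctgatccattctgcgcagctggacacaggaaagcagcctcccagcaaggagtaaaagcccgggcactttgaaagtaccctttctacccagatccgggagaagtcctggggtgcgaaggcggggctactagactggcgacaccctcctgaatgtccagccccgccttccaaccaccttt
Itgb1: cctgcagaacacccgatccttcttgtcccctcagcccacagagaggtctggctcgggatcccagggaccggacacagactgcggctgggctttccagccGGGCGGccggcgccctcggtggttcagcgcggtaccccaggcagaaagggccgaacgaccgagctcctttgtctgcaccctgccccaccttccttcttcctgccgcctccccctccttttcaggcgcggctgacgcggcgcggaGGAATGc
The Itga11 and Itga1 windows each held the Ets-type letters once, 40 and 192 bases before the start, which 10.3% of 32851 windows of this length held when the longer form CCGGAAGT was counted too. The Itgb1 window held 1 GC box (32.7% of all windows) and 1 TEAD-type match (12.6%), and neither alpha chain held these. All 3 windows lacked the TATA box TATAAA, the AP-1 motifs TGACTCA and TGAGTCA, the Smad palindrome GTCTAGAC and the CArG box. The share of G and C was 68.4% for Itga11, 57.6% for Itga1 and 68.0% for Itgb1, against a median of 52.4%. A match describes letters only, and the arrays did not measure binding.

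The arrays differed little in brightness between the groups, and 1 array stood apart. The 75th percentile of the processed signal ran from 138 to 328 on knockout arrays and from 190 to 290 on wild-type arrays. Wild-type replicate 2 correlated at 0.939 and 0.960 with replicates 1 and 3 of its group, a pair at 0.984, so several values are also given without it. Knockout replicate 1, the array with the 75th percentile of 138, correlated at 0.958 and 0.980 with replicates 2 and 3 of its group, a pair at 0.986. Mmp19 was well above background on 0 of 3 knockout and 3 of 3 wild-type arrays. Against the label of female sex, the Y-linked Ddx3y was well above background on all 6 arrays, with a log2 change of -2.48 (limma adjusted p = 0.139). Xist was so on 3 knockout and 0 wild-type arrays (adjusted p = 0.00323), and a difference of this kind between the animals cannot be told apart from genotype in what follows. Of the fibroblast markers 9 of 11 were well above background on all arrays, Col1a1, Vim and Thy1 among them. The epithelial surfactant gene Sftpc, the leukocyte gene Itgam and the endothelial gene Pecam1 were also well above background on all 6, whereas Epcam, Nkx2-1 and Pf4 were so on none. By list, 4 of 7 epithelial, 5 of 6 endothelial and 2 of 5 leukocyte markers with a probe were so on all 6. Of the 5 platelet and megakaryocyte markers, 1 was so on all 6, Gp1bb, and 2 were so on none. The leukocyte gene Ptprc was well above background on 1 knockout and 1 wild-type array only. The part of such cells in the results was not tested. In RNA of whole cultures a change in the share of cells that express a gene and a change per cell cannot be told apart.

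Of the 5 members tested, 1 passed the threshold, Itga11, which was higher in the knockout, and none was lower. Over all 12472 genes tested, 4.79% passed (limma, adjusted p under 0.05), with 3.3% higher and 1.49% lower. Over single probes the shares were 4.64%, 2.88% and 1.76%, and 1 of the 8 tested member probes passed. A count of 1 among 5 says little about the family. The median log2 change of the 5 members was 0.81, against 0.08 over all genes tested. Of the 5 changes 4 were positive, and so were 7023 of the 12472 over all genes.

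Itga11, the alpha chain of the integrin that binds type I collagen on fibroblasts, was about 20.2-fold higher in cells without Mmp19. Its processed signal was 5497, 10855 and 7681 intensity units on the 3 knockout arrays and 499, 199 and 584 on the 3 wild-type arrays. Every knockout array was above every wild-type array, with no overlap. On scaled signals 21.2% of genes with complete values had this, and 31% had groups apart in either direction. After each array was scaled to its own 75th percentile, the log2 level averaged 5.11 ± 0.18 (SD, n = 3) over the knockout cultures. The wild-type cultures averaged 0.77 ± 0.77 (SD, n = 3). The log2 change was 4.34 ± 0.39 (SE), with a 95% interval of 3.41 to 5.26, which as a fold is 10.6 to 38.4 (limma adjusted p = 0.00439). The knockout cultures lay within a narrow band, and the wild-type spread came mostly from replicate 2, the dimmest of the 3. Only 0.305% of the genes tested had a larger change in either direction, and Itga11 ranked 26 among the rises. The gene was well above background on all 6 arrays, so its fold is a measured ratio and not a bound. Each slide carried a knockout and a wild-type array, and the log2 difference on the 3 slides was 3.91, 5.14 and 3.96. A fit that blocked on slide gave an adjusted p of 0.0271, and the change passed in all 21 alternative fits, at 3.91 to 4.65. An exact two-sided permutation test over the 6 arrays gave p = 0.1, the smallest that 3 against 3 allow. A single probe read the gene, so the alternatives on the probe of a gene could not move its change.

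**Figure D1:**
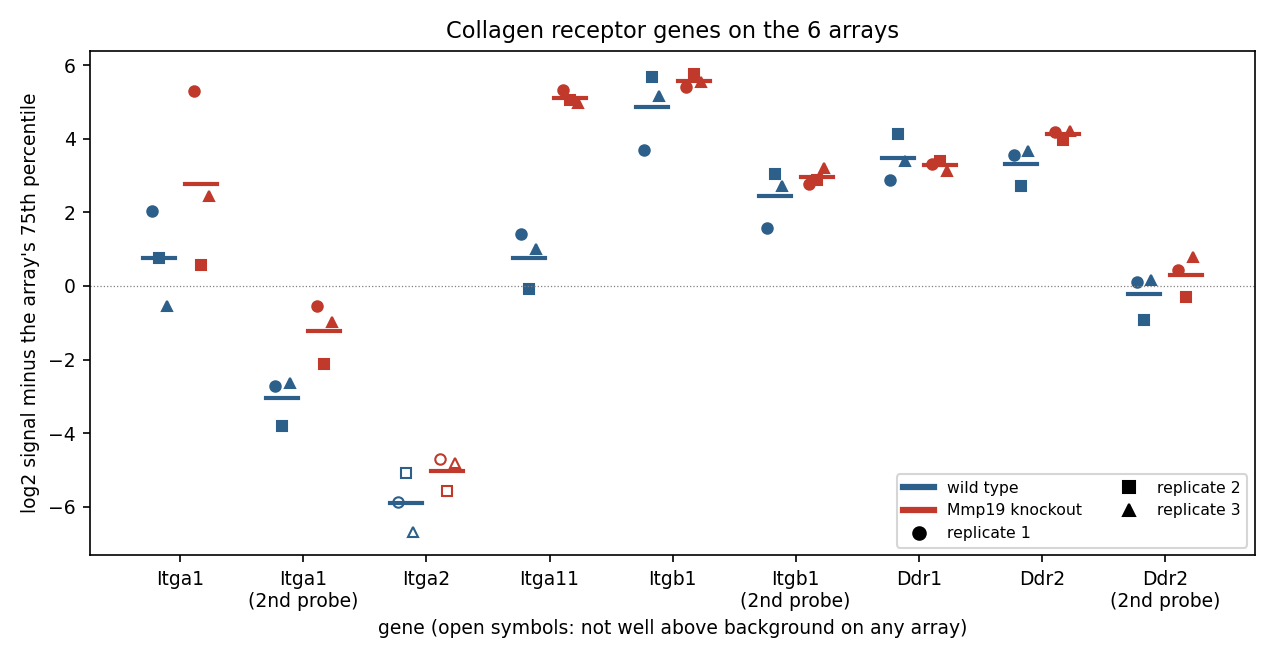
Log2 processed signal minus the array's 75th percentile (vertical axis) for the 9 member probes (horizontal axis) in wild-type (blue) and Mmp19 knockout cultures (red), with symbols for the replicate number, lines for group means and open symbols for the Itga2 probe, which was at background throughout. The 3 knockout values of Itga11 sit near 5.11 and the wild-type values near 0.77. The values of the brighter Itga1 probe, Itga2, Itgb1, Ddr1 and the second Ddr2 probe overlap between the groups. Distances between genes carry no meaning, since probes differ in brightness.

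Itga1, the alpha chain that favours type IV collagen, was read by 2 probes that differed in how they varied. On the brighter probe the processed signal was 5397, 482 and 1332 on the knockout arrays and 783, 359 and 198 on the wild-type arrays. Knockout replicate 1 was far above all others and knockout replicate 2 lay among the wild-type arrays, so the groups overlapped. The log2 change of this probe was 2.01 ± 1.21 (SE; limma adjusted p = 0.386), and the interval from -0.85 to 4.87 holds both no change and a change as large as that of Itga11. It was 0.75 without knockout replicate 1 and 3.11 without knockout replicate 2 (adjusted p = 0.699 and 0.190), and within slides it was 3.24, -0.20 and 2.99. On the dimmer probe the signal was 95.1, 75.1 and 126 in knockout and 28.7, 15.2 and 46.8 in wild-type cultures, and only 2 of the 3 wild-type arrays were well above background. This probe was therefore tested only through the knockout group, where it is high. Its separation and change are thus no independent support for a rise of Itga1. All 3 knockout arrays of this probe were above the wild-type arrays, and groups were apart in this way, in either direction, for 29.6% of probes. Its log2 change was 1.84 ± 0.49 (SE), with an interval of 0.67 to 3.01, and it missed the threshold (limma adjusted p = 0.0895). Within slides it was 2.18, 1.68 and 1.66. The gap between the probes on 1 array ran from 2.08 to 5.83 log2 units, against gaps that varied by 0.77 for the pair of Itgb1 probes and 0.86 for the pair of Ddr2 probes. The reason for this gap was not tested.

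The remaining alpha chains gave no comparison. The Itga2 probe had a processed signal between 2.80 and 8.72 and stayed at background on all 6 arrays, so it was not tested and has no fold. No probe matched Itga10 through its RefSeq accession, so that gene was not analysed here.

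Itgb1, the beta chain that every one of these alpha chains needs, did not pass. On its brighter probe the processed signal was 5885, 17822 and 11452 in knockout and 2470, 10807 and 10459 in wild-type cultures. After scaling, the knockout arrays lay between 5.41 and 5.77 and the wild-type arrays at 3.70, 5.67 and 5.17, so wild-type replicate 1 was low and the other wild-type arrays were close to the knockout range. The log2 change was 0.72 ± 0.49 (SE; limma adjusted p = 0.441), with an interval from -0.44 to 1.88. Leaving out wild-type replicate 1 brought it to 0.15, and leaving out replicate 2 of that group raised it to 1.14 (adjusted p = 0.176), so single arrays moved it in both directions. The dimmer probe gave 0.50 ± 0.40 (SE; adjusted p = 0.508), with wild-type replicate 1 again the lowest array.

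**Figure D2:**
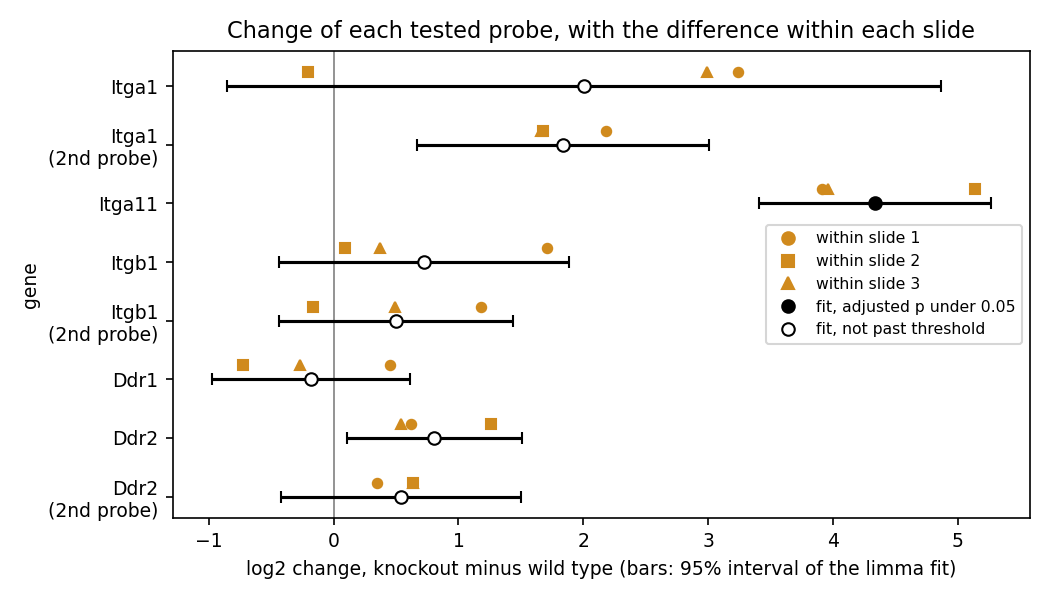
Log2 change, knockout minus wild type (horizontal axis), of the 8 tested probes of 5 genes (vertical axis). Black points and bars give the limma estimate and its 95% interval, filled where the adjusted p is under 0.05, and orange symbols give the difference within each of the 3 slides. The Itga11 interval, 3.41 to 5.26, lies apart from those of Itgb1, Ddr1 and Ddr2, and the slides of the brighter Itga1 probe spread from -0.20 to 3.24.

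The discoidin receptors did not pass either. Ddr2, the fibroblast receptor kinase for fibrillar collagen, had a processed signal of 2518, 5159 and 4535 in knockout and 2242, 1389 and 3686 in wild-type cultures on its brighter probe. After scaling, the knockout arrays lay between 3.98 and 4.21 and the wild-type arrays at 3.56, 2.71 and 3.67, without overlap. Of genes with complete values 31% had groups apart, 21.2% with knockout above and 9.82% with knockout below. The log2 change was 0.81 ± 0.30 (SE), with an interval of 0.11 to 1.51, but it did not pass (limma adjusted p = 0.181). It was 0.51 without wild-type replicate 2, the lowest array. The dimmer Ddr2 probe gave 0.54 ± 0.40 (SE; adjusted p = 0.485) with overlapping groups. Ddr1, the epithelial member of the pair, had a processed signal of 1388, 3471 and 2158 in knockout and 1388, 3710 and 3068 in wild-type cultures. Its scaled values were 3.32, 3.40 and 3.13 in knockout and 2.87, 4.13 and 3.40 in wild-type cultures, with the knockout arrays inside the wild-type range. The log2 change was -0.18 ± 0.33 (SE; limma adjusted p = 0.799), and its interval, -0.97 to 0.61, leaves out a change of the size seen for Itga11. Without wild-type replicate 2, where Ddr1 was at its highest and Ddr2 at its lowest, the Ddr1 change turned to 0.15. The epithelial markers, 4 of which could be tested, had 0 higher and 0 lower. The log2 of their summed scaled signal ran from 4.88 to 5.81 in knockout and from 5.19 to 5.51 in wild-type cultures. Most of this sum was Sftpc, at 4.48 to 5.45 in knockout and 4.795 to 5.09 in wild-type cultures. Epcam, Nkx2-1 and Cldn18 were well above background on no array, so the sum is no measure of epithelial content.

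On the brighter or only probe, knockout cultures were closer to each other than wild-type cultures for 4 of 5 members. The SD over replicates was 0.18 in knockout against 1.02 in wild-type cultures for the brighter Itgb1 probe, 0.14 against 0.63 for Ddr1 and 0.13 against 0.52 for Ddr2. Itga1 had the larger SD in knockout on both probes, at 2.38 against 1.30 and 0.82 against 0.65. The dimmer Ddr2 probe had similar SDs, 0.56 in knockout and 0.61 in wild-type cultures. Over 12440 genes with complete values, 59.4% had the larger SD in the wild-type cultures, so this side is common in these data.

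Whether an alpha chain moved apart from its beta chain was read from their difference on the same array. The log2 signal of Itga11 minus that of Itgb1 was -0.10, -0.71 and -0.58 on the knockout arrays and -2.31, -5.76 and -4.16 on the wild-type arrays. All knockout arrays were higher, and the mean changed by 3.61 ± 1.02 (SE, n = 3 per group), or by 2.77 when wild-type replicate 2 was left out. For Itga1 minus Itgb1 the values were -0.12, -5.21 and -3.10 in knockout and -1.66, -4.91 and -5.72 in wild-type cultures, which overlapped, with a change of 1.29 ± 1.93 (SE) that turned to -0.057 without knockout replicate 1. For Ddr2 minus Ddr1 they were 0.86, 0.57 and 1.07 in knockout and 0.69, -1.42 and 0.27 in wild-type cultures. Here too the groups overlapped, and the change of 0.99 ± 0.66 (SE) was 0.36 without wild-type replicate 2. Exact two-sided permutation tests of the 3 differences gave p = 0.1, 0.6 and 0.2, or 0.3, 0.6 and 0.3 after Benjamini-Hochberg adjustment, and 0.1 was the smallest p possible. The permutation test could not have passed 0.05 for any of the 3, whatever the values. On the 3 slides the knockout minus wild-type value of Itga11 minus Itgb1 was 2.21, 5.05 and 3.59.

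**Figure D3:**
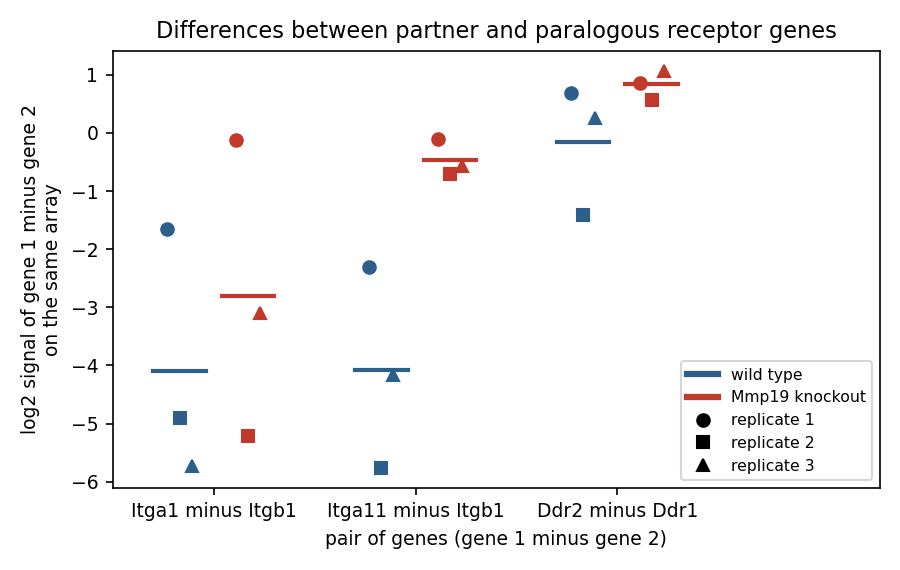
Difference between the log2 signals of 2 genes on the same array (vertical axis) for 3 pairs (horizontal axis), in wild-type (blue) and knockout cultures (red), with symbols for the replicate number and lines for group means. Itga11 minus Itgb1 lies between -0.71 and -0.10 in knockout and between -5.76 and -2.31 in wild-type cultures, and both other pairs overlap. Only shifts between the groups can be read, since the height of a pair depends on its probes.

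Some of the collagens that these receptors bind were higher too. Of 16 ligand chains listed, 11 were tested, of which 3 rose and none fell, against 3.3% higher and 1.49% lower over all genes tested. The median change of the 11 was 1.27 on the log2 scale, and all 11 estimates were positive. Over all 12472 genes tested the median was 0.08, and 7023 estimates were positive. Col11a1, a chain of fibrillar type XI collagen, rose by 1.93 ± 0.27 (SE; limma adjusted p = 0.0173). The chains of type I collagen, the preferred ligand of the Itga11 integrin, rose by 1.47 ± 0.26 for Col1a1 (adjusted p = 0.0307) and by 1.25 ± 0.25 for Col1a2 (0.0415). These calls depended on the arrays: none of the 3 held when slide was blocked (limma adjusted p = 0.0705, 0.0843 and 0.0942), and the count was 0 without knockout replicate 3 or wild-type replicate 3, 1 without knockout replicate 1, 2 without knockout replicate 2 or wild-type replicate 1, and 4 when wild-type replicate 2 was left out.

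Among the other alpha chains that pair with Itgb1, 2 of 6 tested rose and 0 fell, against 3.3% and 1.49% over all genes tested. Itga8, whose integrin binds RGD sequences in matrix proteins, rose by 3.29 ± 0.35 (SE; limma adjusted p = 0.00713, and 0.0453 with slides blocked). Itga7, a laminin-binding chain of muscle, rose by 1.45 ± 0.31 but lay at the threshold (adjusted p = 0.04999, and 0.0834 with slides blocked). The count was 0 without knockout replicate 3 or wild-type replicate 3, and 1 without any 1 of knockout replicates 1 and 2 and wild-type replicate 1.

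Of the other collagen receptors, 1 of 5 tested rose, where 3.3% of all genes tested did. Mrc2, an endocytic receptor that takes up collagen fragments, rose by 2.22 ± 0.38 (SE; limma adjusted p = 0.0278), but not with slides blocked (0.0748). The count of this list was 1 without wild-type replicate 2 and 0 without any other single array. Gp6, the platelet collagen receptor, was too dim to test.

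Genes that carry the signal inward were read in the same way. Of 23 tested adaptors of integrin adhesions, 2 rose and none fell, around a median of 0.20. Over all genes tested 3.3% were higher and 1.49% lower. The adaptors that rose were Tln2, a talin that links integrin tails to actin, at 1.59 ± 0.29 (SE; limma adjusted p = 0.0346), and Ptk2b, a kinase related to focal adhesion kinase, at 1.50 ± 0.26 (adjusted p = 0.0284). Neither held with slides blocked (0.0841 and 0.0519), and the count was 4 without wild-type replicate 2 and 0 without any other single array. The widely expressed talin Tln1 changed by -0.01 ± 0.22 and the focal adhesion kinase gene Ptk2 by -0.26 ± 0.19, neither past the threshold, and these were picked after their values were seen as the counterparts of the genes that rose. Of 7 tested genes that inactivate or traffic integrins, 0 passed, where 4.79% of all genes tested did. Without adjustment, 5119 of the 24217 tested probes had a limma p under 0.05. Those with the smallest p were Swap70 at 1.02 ± 0.28 and Snx17, a sorting nexin that recycles Itgb1, at 0.56 ± 0.21 (adjusted p = 0.0919 and 0.194). Of 9 tested partners of discoidin receptor signalling, 0 passed in limma, led by the nonmuscle myosin Myh9, which Ddr1 binds, at 0.77 ± 0.20 (adjusted p = 0.0871), and the adaptor Nck2 at 0.77 ± 0.34 (0.257).

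Of 6 tested proteases tied to these receptors, 1 rose, where 3.3% of all genes tested did. Mmp14, a membrane-bound collagenase, rose by 1.62 ± 0.27 (SE; limma adjusted p = 0.0266, and 0.0458 with slides blocked), and its slides gave 1.56, 1.69 and 1.60. Beside Mmp14, Itga11 and Itga8, no gene of the receptor and pathway lists passed with slides blocked. The count of the list was 0 without knockout replicate 1 or 3 or wild-type replicate 1 or 3, and 2 higher with 2 lower without wild-type replicate 2.

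**Figure D4:**
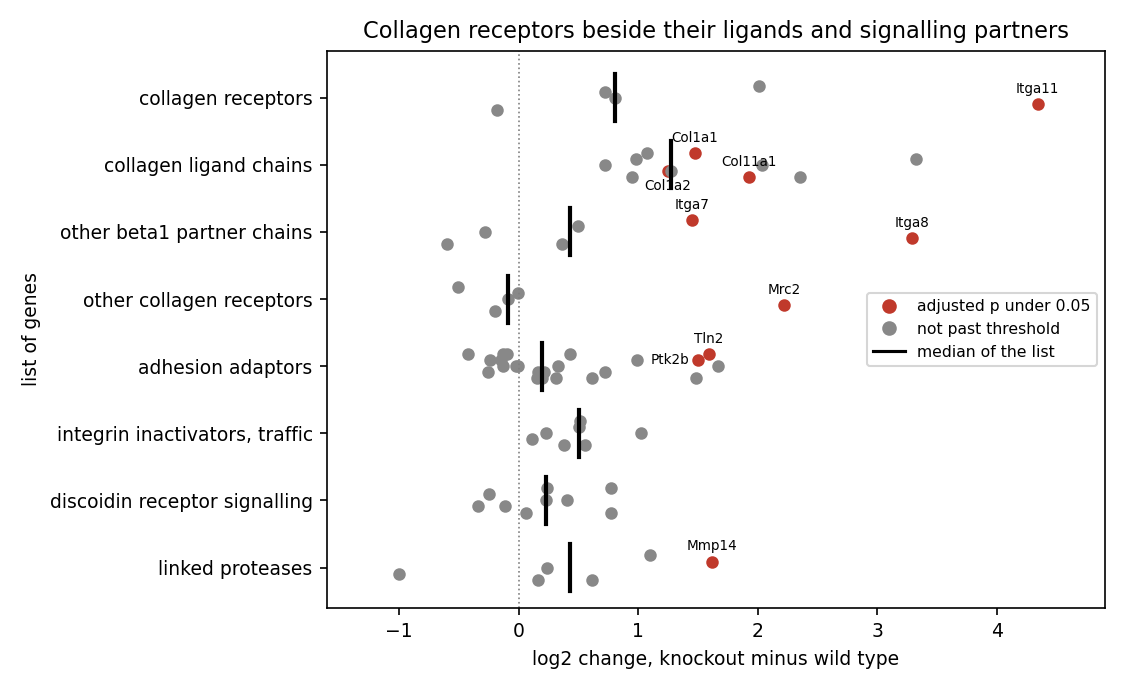
Log2 change, knockout minus wild type (horizontal axis), of each tested gene in 8 lists (vertical axis), with red points for genes past an adjusted p of 0.05, grey points for the others and a black line for the median of the list. Itga11 at 4.34 lies farthest to the right, the ligand chains are all above 0 with a median of 1.27, and the adhesion adaptors centre on 0.20.

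Among 12435 genes outside the family, those whose centred profile over the 6 arrays lay nearest to that of Itga11 were Apoc1, an apolipoprotein, Ogn, a small leucine-rich proteoglycan of the matrix, and Sugct, a mitochondrial enzyme. The root mean square difference from Itga11 was 0.417, 0.418 and 0.445 log2 units, and their log2 changes were 3.88 ± 0.58, 3.84 ± 0.31 and 3.69 ± 0.29 (SE). This ranking rests on 6 arrays in which the step between the groups is most of the variation. Among markers of other cell types, the mesothelial ones and some of smooth muscle also rose, where 3.3% of all genes tested did. The tested pericyte, epithelial, endothelial, leukocyte and platelet markers had 0 higher and 0 lower in the main fit. The median log2 change of the 3 tested pericyte markers was -1.22. All 5 tested of 6 mesothelial markers rose (Msln, Upk3b, Wt1, Lrrn4 and Bnc1), while Calb2 stayed at background. The log2 of their summed scaled signal was 5.10 to 6.40 in knockout and 0.79 to 3.09 in wild-type cultures. Upk3b and Lrrn4 were well above background on 2 of 3 wild-type arrays and Bnc1 on 1. These genes were therefore tested only through the knockout group, where they are high. This count of 5 was 4 with slides blocked, 3 without knockout replicate 1, 4 without wild-type replicate 1, and 1 without knockout replicate 2 or 3 or wild-type replicate 3. Of 5 tested smooth muscle and myofibroblast markers 2 rose, Myh11 at 2.98 ± 0.35 and Des at 2.49 ± 0.44 (SE). Both were tested only through the knockout group, since Myh11 was well above background on 2 of 3 wild-type arrays and Des on 1. The sums of this list were 9.46 to 9.78 in knockout and 7.30 to 10.0 in wild-type cultures. The count was 1 without knockout replicate 2 or wild-type replicate 1 and 0 without knockout replicate 3 or wild-type replicate 3. Acta2, their most used marker, changed by 0.83 ± 0.69 and did not pass (limma adjusted p = 0.530). Fibroblast markers summed to 11.3 on the lowest and the highest knockout array, and to 10.3 to 11.2 in wild-type cultures, with 2 of 11 higher, Col1a1 and Col1a2, and 0 with slides blocked. The part of such cells in the Itga11 result was not tested.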

How the data were processed

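Total RNA of 6 cultures was labelled with Cy3 from 0.5 µg and hybridised to one-colour arrays, per the labels' protocols. The authors deposited 1 table of spot intensity per array. Per the file headers, version 10.7.3.1 of Feature Extraction subtracted the background and set flags for each spot, on a design annotated for mm9, whereas the submitters' processing notes name version 9.1. The authors also deposited log2 values for 35844 probes, whose column medians ran from 5.51 to 5.76 and which follow the log2 signal of their own array (correlation of at least 0.996). How these were centred stays unknown, and they served as an alternative.

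Control spots and outlier flags were left out and spots of 1 probe averaged (55681 probes, 259 lacking a value on some array; 0 spots saturated). Log2 processed signals were set relative to each array's 75th percentile. A probe was tested if either group had it well above background in all 3 cultures, which left 24217. The two-sided test was limma's (3.58.1, lmFit then eBayes, R 4.3.3), and p-values were adjusted over all tested probes by the Benjamini-Hochberg method. At 0.05, 1124 passed, 697 higher and 427 lower, or 607 higher and 562 lower when arrays were scaled on the 75th percentile of probes detected on all of them. Errors and 95% intervals come from that fit. The number of arrays limits the precision.

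Names came from matching RefSeq accessions, versions removed, to a table of GRCm38.p6 (26413 probes, 47.4%); no gene coordinates were taken from it, since the arrays use mm9. A gene stands for its tested probe with the highest mean, and the other probes of a member are given. Promoters came from a RefSeq table of GRCm38.p6, which held all 7 members. The genes named were the members, up to 4 genes past the threshold per list or, where none passed, 2 with the smallest p, the 3 nearest in profile to a member that passed, and the markers. The members, lists and tests were chosen with earlier results of these data known. The pipeline was tested on simulated data.

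Each slide held the arrays of 1 replicate number. On a slide, the 2 arrays' departures from their group means had correlations of 0.096, -0.020 and 0.210, so the numbers were not taken as pairs, and slide was tried as a block. Alternatives covered background correction, normalization, filters, the prior, array weights, the probe of a gene and leaving out each array.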

Additional observations from a re-analysis of the deposited data

How the results depend on the processing

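Itga11 passed in all 21 alternative fits, with a limma adjusted p of 5.04e-07 to 0.0388. Those on the probe of a gene could not move its change, since it has 1 probe. The number of members past the threshold was 1 in 20 of 21 alternatives, between 1 and 1 when 1 array was left out, and 4 with array weights by the REML method, which did not converge and weighted both arrays of the third slide at 10.2 and 12; there Itga1, Itgb1 and Ddr2 also passed. The number of probes past the threshold was 1124 and became 633 with normexp background (offset 50, on median spot signals), 113 without a filter, 650 with probes well above background on all 6 arrays, 345 with those on at least 1 array, 5073 with gene-by-gene array weights (added after the data were seen), 14879 with the REML weights, 385 with slide as a replicate block (228 higher and 157 lower), and 107 to 1716 when 1 array was left out. The block changed no call of a member. When 1 array was left out the Ddr1 change ran from -0.48 to 0.15, turning positive without wild-type replicate 2, and that of Itga1 minus Itgb1 from -0.057 to 2.51, turning negative without knockout replicate 1. The cause was not tested. The median change of all tested probes was 0.07, and -0.04 with the scaling on detected probes. Signals near background, such as those of Itga2 and the dimmer Itga1 probe, limit what can be compared. The lists were counted without each array and with slide as a block after the data were seen.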

Other observations

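Outside the rule for naming genes, and chosen after the values were seen, the gene nearest in profile to the brighter Itgb1 probe among 12435 genes was Cnn1, the smooth muscle calponin, at a root mean square difference of 0.0658 log2 units over the 6 arrays. Its log2 change was 0.80 ± 0.51 (SE; limma adjusted p = 0.408). A gene picked for its profile has a change near that of the member by the choice itself, here and for the genes below. Nearest to Ddr2 was Wdsub1, at 0.0572, with a change of 0.76 ± 0.31 (adjusted p = 0.221). Nearest to the brighter Itga1 probe was Ssty1, a Y-linked gene of the testis, at 0.162, with a change of 1.96 ± 1.19 (adjusted p = 0.393).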
